A study of Mus musculus and Rattus norvegicus with 6 samples.

Results

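The EGF receptor ligands and ERBB receptors were followed in cultured smooth muscle cells (SMCs) after knockdown of YAP and TAZ. The 9 genes were fixed by name, as 6 ligands (Areg, Ereg, Hbegf, Btc, Tgfa and Nrg1) and 3 receptors (Egfr, Erbb2 and Erbb3), and each was found once among the 55573 genes of the deposited mouse table. The bulk RNA-seq comprised 2 libraries of cells transfected with YAP and TAZ siRNA (siYAP/TAZ) and 2 libraries of cells transfected with AllStars Negative Control siRNA (siCo). All 4 libraries are labelled as wild-type cells of MOVAS, a mouse aortic smooth muscle line, whereas the figure legends of the study speak of primary penile SMCs. More than 1 YAP/TAZ siRNA mix is listed, the sample titles are SiYT1 and SiYT2 and both data columns begin with SiYT1, and whether that numeral stands for a mix or a replicate is not stated. A legend speaks of biologically independent samples for a qRT-PCR panel of genes from this experiment, but the labels name no separate cultures for the sequenced libraries, so each p-value measures a spread that may be technical.

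The libraries held 17192309 to 18751368 counts. Yap1 fell to 1.87 and 2.03 FPKM in the siYAP/TAZ libraries, against 21.8 and 23.5 FPKM in the siCo libraries, and Wwtr1, the gene of TAZ, fell to 16.8 and 17.6 FPKM in the siYAP/TAZ libraries, against 56.5 and 59.1 FPKM in the siCo libraries. FPKM is the count of a gene scaled by exon length and library total, so that levels can be set side by side between genes. Such comparisons depend on the deposited exon length of each gene, and whether it matches the transcripts made was not checked. Among the markers of smooth muscle, Acta2 was at 68.8 and 66.1 FPKM in siYAP/TAZ cells, against 138 and 142 FPKM in siCo cells. Tagln was at 9.07 and 8.22 FPKM in siYAP/TAZ cells, against 35.7 and 35.3 FPKM in siCo cells. Smtn was at 23.5 and 23.0 FPKM in siYAP/TAZ cells, against 25.0 and 25.5 FPKM in siCo cells. Cnn1, Des and Lmod1 were at 3.55 FPKM or less in every library. Myh11, the smooth muscle myosin heavy chain, was at 1.07 and 0.834 FPKM in siYAP/TAZ cells, against 1.29 and 1.29 FPKM in siCo cells, and Myocd, the gene of the smooth muscle coactivator myocardin, was at 0.178 FPKM or less in every library. Cdh5, the gene of the endothelial cadherin, was at 43.1 and 45.8 FPKM in siYAP/TAZ cells, against 42.7 and 41.7 FPKM in siCo cells. That level goes against the label of smooth muscle, but Cdh5 was the highest of the 6 endothelial markers measured. Pecam1 was at 15.7 and 15.4 FPKM in siYAP/TAZ cells, against 13.0 and 12.7 FPKM in siCo cells. Erg was at 9.49 and 8.93 FPKM in siYAP/TAZ cells, against 5.0 and 5.94 FPKM in siCo cells. Kdr and Tek lay between 1.42 and 5.03 FPKM in every library. Vwf, the lowest of the 6, was at 0.287 FPKM or less in every library.

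EGF-family ligands are made as membrane-anchored precursors, and metalloproteases of the ADAM family release their soluble forms. A ligand brings ERBB receptors together in pairs, which signal through the Ras-ERK and PI3K routes to growth, survival and migration. The products of Areg and Tgfa bind EGFR, those of Hbegf, Btc and Ereg bind EGFR and ERBB4, and that of Nrg1 binds ERBB3 and ERBB4. ERBB2 has no ligand of its own and acts as a partner, and the kinase of ERBB3 is weak. In vascular smooth muscle the family is known for its mitogens, heparin-binding EGF-like growth factor among them, and amphiregulin is known as a YAP target from human mammary epithelial cells.

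The members changed in both directions. Btc, Areg and Nrg1 were higher in siYAP/TAZ cells, Hbegf, Egfr, Erbb2 and Ereg were lower, and Tgfa and Erbb3 did not pass the test. Changes were tested with edgeR's quasi-likelihood test over all 15479 genes that passed its filter on low counts, with an adjusted p under 0.05 as the threshold. All 9 members were tested, and 3 were higher and 4 lower. Over all tested genes 27.6% were higher and 27.7% lower, or 55.4% in either direction, so that a call by itself was common in this comparison. A change of at least 2-fold that also passed was seen in 10.3% of tested genes, and Hbegf, Btc and Areg were in that class. FPKM values of the groups did not overlap for any of the 9 members, as for 77.2% of tested genes.

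**Figure D1:**
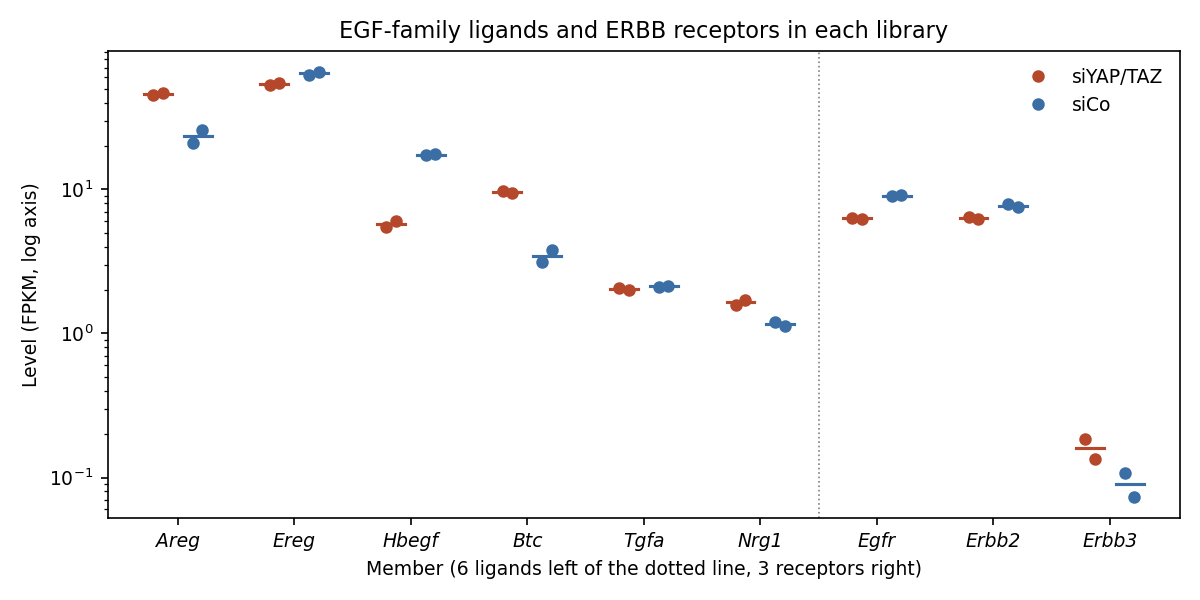
Level of each member in each library (FPKM, log axis), with 1 point per library, the mean as a short line, siYAP/TAZ left of siCo for each gene. Ereg and Areg were the most abundant ligands, and Erbb3 was below 0.2 FPKM in all 4 libraries.

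Among the ligands, Hbegf, the gene of heparin-binding EGF-like growth factor, showed the largest decrease. The gene (ENSMUSG00000024486) occupies positions 36504927 to 36515805 of chromosome 18 in mm10, on the minus strand. Hbegf was at 5.48 and 6.03 FPKM in siYAP/TAZ cells, against 17.2 and 17.6 FPKM in siCo cells. The log2 fold change, with its standard error (SE), was -1.55 (SE 0.0666, edgeR adjusted p = 3.249e-14), or 2.93-fold lower. Both siYAP/TAZ libraries lay at about the same level, far under the siCo libraries, and 1.07% of tested genes had a lower log2 fold change.

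Btc (ENSMUSG00000082361), the gene of betacellulin, showed the largest increase of the 9. It was at 9.73 and 9.37 FPKM in siYAP/TAZ cells, against 3.15 and 3.80 FPKM in siCo cells. The log2 fold change was 1.5 (SE 0.0908, edgeR adjusted p = 7.755e-12), or 2.84-fold higher. Betacellulin binds the same receptors as heparin-binding EGF-like growth factor, EGFR and ERBB4, and these ligand genes moved in opposite directions. In siCo cells Hbegf was the higher of the pair in each library, and in siYAP/TAZ cells Btc was.

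Areg (ENSMUSG00000029378), the gene of amphiregulin, was at 45.3 and 47.0 FPKM in siYAP/TAZ cells, against 20.9 and 25.7 FPKM in siCo cells. The siCo libraries were less alike than the siYAP/TAZ libraries, and both lay well under them. The log2 fold change was 1.03 (SE 0.0818, edgeR adjusted p = 6.525e-10), or 2.04-fold higher. Leaving out siCo replicate 1 gave 0.89 and leaving out siCo replicate 2 gave 1.19, and the call held in both.

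Ereg (ENSMUSG00000029377), the gene of epiregulin, was the most abundant ligand by FPKM in every library. It was at 52.8 and 54.4 FPKM in siYAP/TAZ cells, against 62.6 and 65.3 FPKM in siCo cells. The decrease was small, and the fitted log2 change was -0.21 (SE 0.0441, edgeR adjusted p = 0.0003278), or 1.16-fold. The antisense gene Gm19610 shares 152 bases with the start of Ereg, and since the strand setting of the counting is not given, reads in that overlap cannot be assigned to either. Its counts of 78 and 68 in siYAP/TAZ cells, against 87 and 112 in siCo cells, were few beside the 4084 and 3860 counts of Ereg in siYAP/TAZ cells, against 4759 and 4864 in siCo cells.

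Ereg, Areg and Btc lie in a row on chromosome 5 of mm10, together with Epgn, the gene of epigen. From Epgn at 91027464 to the end of Btc at 91402994 the row covers 375531 bases. Ereg runs from 91074622 to 91093646 and Areg from 91139599 to 91148432, both on the plus strand with 45952 bases between them. Btc lies 208828 bases further on, from 91357261 to 91402994, on the minus strand. Neighbours in this row did not change alike. Ereg was lower and Areg, next to it, was higher, and Epgn did not pass the test, with 14 and 28 counts in siYAP/TAZ cells, against 13 and 20 counts in siCo cells (log2 fold change 0.42, SE 0.444, edgeR adjusted p = 0.4478).

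The bases before the RefSeq start are shown for Areg and Btc, the members that were higher by at least 2-fold and share the chromosome 5 row. Promoter windows of RefSeq (GRCm38.p6) were matched by symbol to 5 of the 9 members (Areg, Btc, Tgfa, Egfr and Erbb2), and the 250 bases before the start were searched on both strands for the TEAD motif GGAATG, the AP-1 motif TGANTCA, the cyclic AMP response element TGACGTCA and the CArG box of serum response factor. TEAD is the DNA-binding partner of YAP/TAZ. No motif contains another, and the cyclic AMP response element was added after the Areg sequence had been read. Matches are in capitals. The Areg window is chr5:91139349-91139598 on the plus strand and the Btc window chr5:91402995-91403244 on the minus strand, each written 5′ to 3′.
Areg: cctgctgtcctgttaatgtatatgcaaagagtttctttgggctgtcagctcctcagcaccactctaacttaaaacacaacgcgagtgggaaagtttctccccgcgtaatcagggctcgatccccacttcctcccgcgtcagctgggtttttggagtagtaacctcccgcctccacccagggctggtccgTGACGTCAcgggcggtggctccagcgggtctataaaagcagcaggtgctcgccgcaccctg
Btc: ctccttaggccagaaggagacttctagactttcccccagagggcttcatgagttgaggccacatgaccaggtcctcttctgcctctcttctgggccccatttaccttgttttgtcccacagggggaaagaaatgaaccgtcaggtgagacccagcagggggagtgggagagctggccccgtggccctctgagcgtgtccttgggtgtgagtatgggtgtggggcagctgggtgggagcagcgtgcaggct
The Areg window held 1 cyclic AMP response element, from 61 to 54 bases before the start, which 1.55% of all 32851 such windows hold. The Btc window held no match to any of the 4 motifs.

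Nrg1 (ENSMUSG00000062991), the gene of neuregulin 1 on the minus strand of chromosome 8 (31814551 to 32884254), was at 1.58 and 1.72 FPKM in siYAP/TAZ cells, against 1.20 and 1.13 FPKM in siCo cells. The log2 fold change was 0.54 (SE 0.111, edgeR adjusted p = 0.0002814), or 1.46-fold higher. Nrg1 has many alternative first exons, and counts per gene do not tell which of its forms was made. The antisense gene Gm26578 lies within it and had 17 and 16 counts in siYAP/TAZ cells, against 9 and 10 counts in siCo cells, beside 313 and 312 counts of Nrg1 in siYAP/TAZ cells, against 234 and 215 in siCo cells.

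Tgfa (ENSMUSG00000029999), the gene of transforming growth factor alpha on the plus strand of chromosome 6 (86195223 to 86275719), was at 2.06 and 2.00 FPKM in siYAP/TAZ cells, against 2.11 and 2.13 FPKM in siCo cells. Its log2 fold change was -0.02 (SE 0.114, edgeR adjusted p = 0.917). The group means of Tgfa lay within 1 standard error of each other on the fitted scale, although its FPKM values did not overlap.

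**Figure D2:**
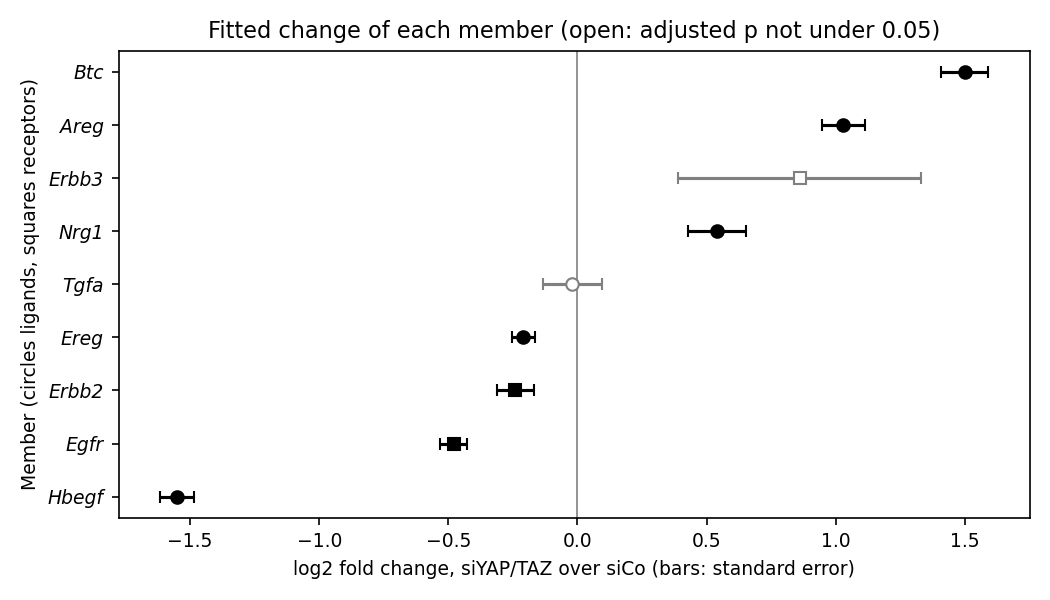
Fitted log2 fold change of each member, siYAP/TAZ over siCo, with bars for the standard error. Circles are ligands, squares are receptors, and open symbols did not pass the test. Hbegf at -1.55 and Btc at 1.5 stand at the ends, and the bar of Erbb3 is the widest.

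Because these changes went both ways, the make-up of the ligand pool was described as the percent of the summed FPKM of the 6 ligands. The sum was 117 and 121 FPKM in siYAP/TAZ cells, against 107 and 116 FPKM in siCo cells, and was not tested. Areg made up 38.9% ± 0.172 of the sum in siYAP/TAZ cells and 20.9% ± 1.90 in siCo cells (SD, n = 2 each). Ereg made up 45.1% ± 0.0152 in siYAP/TAZ cells and 57.4% ± 1.38 in siCo cells. Ereg was thus the larger share in both groups, with Areg second, and the gap between them was narrower in siYAP/TAZ cells. Hbegf made up 4.85% ± 0.222 in siYAP/TAZ cells and 15.6% ± 0.573 in siCo cells. Btc made up 8.05% ± 0.388 in siYAP/TAZ cells and 3.11% ± 0.247 in siCo cells. Hbegf ranked after Areg in siCo cells and Btc ranked after Areg in siYAP/TAZ cells, while Tgfa and Nrg1 were each under 2% in every library. By level, the order was Ereg, Areg, Btc, Hbegf, Tgfa and Nrg1 in siYAP/TAZ cells, and Ereg, Areg, Hbegf, Btc, Tgfa and Nrg1 in siCo cells, and in both orders the libraries of neighbours did not overlap.

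**Figure D3:**
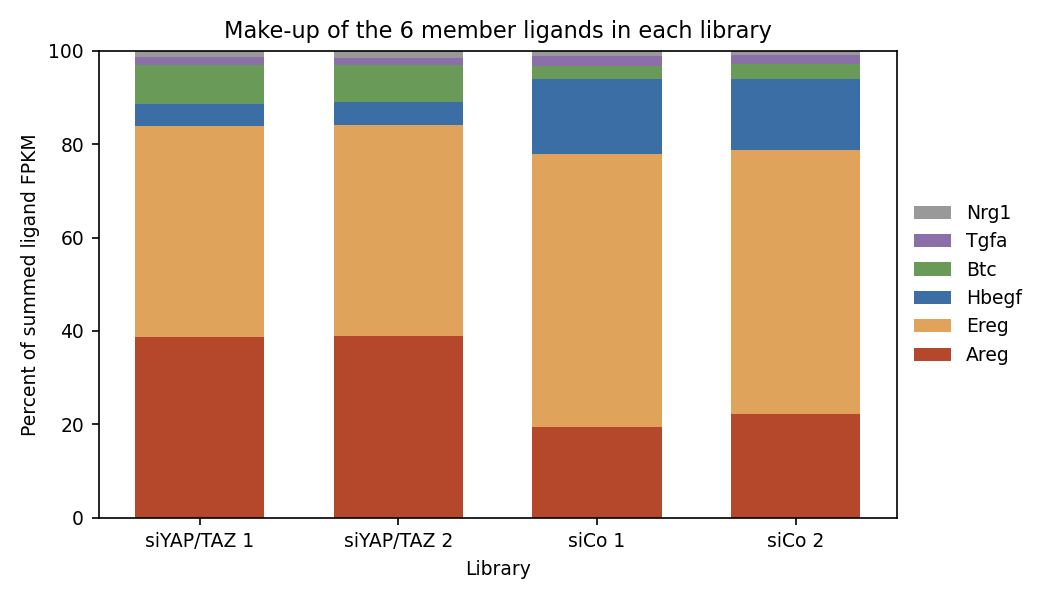
Percent of the summed ligand FPKM held by each of the 6 ligands in each library, stacked to 100. The Areg part is larger in both siYAP/TAZ libraries (38.8% and 39.0%) than in the siCo libraries (19.5% and 22.2%), and the Hbegf part is smaller.

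The receptors were expressed at lower levels than the main ligands. Egfr (ENSMUSG00000020122), the receptor for most of these ligands, was at 6.33 and 6.23 FPKM in siYAP/TAZ cells, against 9.0 and 9.07 FPKM in siCo cells. The log2 fold change was -0.48 (SE 0.0518, edgeR adjusted p = 7.317e-08), or 1.40-fold lower. The libraries of each group lay close together and the gap between groups was many times their spread. In bulk RNA, fewer cells that express a gene and less of its RNA per cell cannot be told apart, here and in the other results.

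Erbb2 (ENSMUSG00000062312), the partner receptor, was at 6.44 and 6.24 FPKM in siYAP/TAZ cells, against 7.91 and 7.54 FPKM in siCo cells. The log2 fold change was -0.24 (SE 0.0728, edgeR adjusted p = 0.007936), or 1.18-fold lower. This call was the least stable of the members. It was lost in DESeq2 (adjusted p = 0.08974), without siYAP/TAZ replicate 2 (adjusted p = 0.06984 from edgeR) and without siCo replicate 1 (adjusted p = 0.052 from edgeR). Erbb2 shares 9 bases with Mien1 on the other strand, and the span of Egfr holds 15272 bases of the antisense gene Egfros, which had at most 8 counts in a library.

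The windows before Egfr and Erbb2 are shown because both were lower and both lie on chromosome 11, at 16752203 to 16918158 and at 98412470 to 98437716 on the plus strand. The sequences are chr11:16751953-16752202 for Egfr and chr11:98412234-98412483 for Erbb2, with matches in capitals as above.
Egfr: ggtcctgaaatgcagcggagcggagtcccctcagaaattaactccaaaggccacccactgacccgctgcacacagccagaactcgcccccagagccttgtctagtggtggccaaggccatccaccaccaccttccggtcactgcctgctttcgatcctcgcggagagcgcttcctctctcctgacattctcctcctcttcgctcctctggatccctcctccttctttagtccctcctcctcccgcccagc
Erbb2: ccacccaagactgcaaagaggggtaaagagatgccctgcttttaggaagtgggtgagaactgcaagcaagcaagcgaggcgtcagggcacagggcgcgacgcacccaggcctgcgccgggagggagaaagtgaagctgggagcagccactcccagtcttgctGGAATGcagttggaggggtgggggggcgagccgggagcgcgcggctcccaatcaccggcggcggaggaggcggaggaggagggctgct
The Erbb2 window held 1 TEAD motif, from 88 to 83 bases before the RefSeq start, a motif found in 12.6% of all windows. That RefSeq start lies past the gene start of 98412470 given above, so the last bases of the window, up to 98412483, fall inside the gene span. The Egfr window held no match to any of the 4 motifs, of which AP-1 is found in 6.75% and the CArG box in 1.47% of all windows. The window of Tgfa held none either.

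Erbb3 (ENSMUSG00000018166), a receptor for neuregulins on the minus strand of chromosome 10 (128567523 to 128589652), was near the limit of detection. It had 21 and 14 counts in siYAP/TAZ cells, against 12 and 8 counts in siCo cells, and the lowest siYAP/TAZ library stood close to the highest siCo library. The ratio of counts per total count was 1.77, with exact 95% bounds of 0.996 and 3.24 for counting error alone. Its log2 fold change was 0.86 (SE 0.469, edgeR adjusted p = 0.1272), so that a difference was not detectable at this depth. Both siYAP/TAZ libraries but only 1 siCo library reached the 10 counts that the filter asks of at least 2 libraries. The remaining receptor of the family, Erbb4, had 0 and 2 counts in siYAP/TAZ cells, against 1 and 1 counts in siCo cells, and was too low to be tested.

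Together the 3 member receptors summed to 13.0 and 12.6 FPKM in siYAP/TAZ cells, against 17 and 16.7 FPKM in siCo cells. Egfr held 49.1% ± 0.397 in siYAP/TAZ cells and 53.6% ± 1.06 in siCo cells, and Erbb2 held 49.6% ± 0.140 in siYAP/TAZ cells and 45.8% ± 0.918 in siCo cells (SD, n = 2 each). In siYAP/TAZ cells the levels of Egfr (6.28 ± 0.0699 FPKM) and Erbb2 (6.34 ± 0.140 FPKM) did not differ beyond their spread, while in siCo cells Egfr (9.04 ± 0.0487 FPKM) was above Erbb2 (7.72 ± 0.265 FPKM) in both libraries. Both statements depend on the exon lengths used, 11326 bases for Egfr and 5210 for Erbb2. Before that scaling Egfr had more counts than Erbb2 in every library.

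Whether members differed in their change was measured as the log2 ratio between 2 members within a library, for 6 pairs. The Areg to Hbegf ratio moved most of the 6. Its log2 value was 1.04 and 0.96 in siYAP/TAZ cells, against -1.69 and -1.43 in siCo cells, a change of 2.56 (95% least-squares interval from 1.98 to 3.14), or 5.90-fold. For Areg to Ereg the change in the log2 ratio was 1.24 (interval from 0.74 to 1.73), and for Ereg to Hbegf it was 1.32 (interval from 1.12 to 1.53). Among the receptors, Egfr to Erbb2 changed by -0.24 (interval from -0.42 to -0.06). Egfr to Erbb3 changed by -1.01 and Erbb2 to Erbb3 by -0.77. Both rest on the few counts of Erbb3, whose own change was not detectable, so no interval is given for them. The groups did not overlap in any of the 6 ratios, yet the two-sided exact permutation p was 0.33 for each, also after adjustment over the 6 pairs, the smallest that 2 libraries against 2 allow.

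The fitted change of Hbegf was the largest in size of the 9, ahead of Btc by less than their standard errors, and without siCo replicate 2 Btc was ahead (1.65 against -1.53 for Hbegf). For Hbegf, the genes with the most similar values over the 4 libraries were looked up among 8405 genes whose higher group averaged 5 FPKM or more. By Euclidean distance of centred log2(CPM + 0.5) values the nearest were Gadd45b at 0.0833, Psat1 at 0.0952 and Cth at 0.111. Gadd45b, a stress-response gene, was at 11.5 and 12.3 FPKM in siYAP/TAZ cells, against 36.1 and 39.1 FPKM in siCo cells. Psat1, an enzyme gene of serine synthesis, was at 18.4 and 19 FPKM in siYAP/TAZ cells, against 53.1 and 53.7 FPKM in siCo cells. Cth, which encodes cystathionine gamma-lyase, was at 1.72 and 1.75 FPKM in siYAP/TAZ cells, against 5.16 and 5.33 FPKM in siCo cells. With 4 libraries in 2 groups, this likeness is mostly a likeness in the size of the change.

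The other genes of the pathway were described from lists by function. Of the 6 further family genes (Egf, Epgn, Nrg2, Nrg3, Nrg4 and Erbb4) only Epgn and Nrg4 had enough counts to be tested. With edgeR 0 of these 2 passed, 0 had an unadjusted p under 0.05, and DESeq2 and limma also called 0. Nrg4, the gene of neuregulin 4, had 21 and 17 counts in siYAP/TAZ cells, against 20 and 9 counts in siCo cells (log2 fold change 0.45, SE 0.445, edgeR adjusted p = 0.4095). Egf itself had 7 and 9 counts in siYAP/TAZ cells, against 17 and 8 counts in siCo cells, Nrg2 had 7 and 3 counts in siYAP/TAZ cells, against 11 and 2 in siCo cells, and Nrg3 had 1 and 0 counts in siYAP/TAZ cells, against 0 in both siCo libraries.

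Genes of ligand shedding changed in 9 of 10 cases, 5 higher and 4 lower, with a median log2 fold change of 0.11 beside 0.00 over all tested genes, of which 55.4% passed. Adam17, the main sheddase of amphiregulin, epiregulin, transforming growth factor alpha and heparin-binding EGF-like growth factor, was at 18.3 and 18.2 FPKM in siYAP/TAZ cells, against 12.9 and 12.9 FPKM in siCo cells. Its log2 fold change was 0.55 (SE 0.0481). Adam15 was also higher (log2 fold change 0.45). Adam10, the main sheddase of betacellulin, and Rhbdf2, which carries ADAM17 to the cell surface, had log2 fold changes of 0.35 and 0.45. Both were picked after their values were seen. Elsewhere in the list Frmd8 was slightly higher (0.12), and Rhbdf1 did not pass (0.1, edgeR adjusted p = 0.1081). Adam9 and Cnih1 were lower, with log2 fold changes of -0.18 and -0.31. Adam19 and Adam12, metalloproteases reported to shed neuregulin and heparin-binding EGF-like growth factor, were lower, with log2 fold changes of -0.99 and -0.85. Adam19 was at 18.5 and 17.2 FPKM in siYAP/TAZ cells, against 36.2 and 37.0 FPKM in siCo cells.

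Of 13 genes listed for restraint or turnover of the receptors, 5 were lower and 0 higher, and 8 missed the threshold. The called share of 38.5% was under the 55.4% of all tested genes, and the median log2 fold change was -0.06 beside 0.00 over all tested genes. Higher calls were also 0 in DESeq2 and limma, and 0 of the 13 were higher at an unadjusted edgeR p under 0.05. Errfi1, the gene of the EGFR inhibitor MIG6, was at 71.0 and 68.2 FPKM in siYAP/TAZ cells, against 144 and 130.0 FPKM in siCo cells (log2 fold change -0.93, SE 0.0479). Tnk2, a kinase that takes part in EGFR degradation, was at 14.6 and 13.9 FPKM in siYAP/TAZ cells, against 32.7 and 32.2 FPKM in siCo cells (log2 fold change -1.15). Socs5 and Lrig1, both known to lower ERBB receptor levels, had log2 fold changes of -0.28 and -0.22. The ubiquitin ligase genes Cbl and Cblb were among the 8 that did not pass.

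Of 20 genes that relay the signal through Ras-ERK and PI3K, 7 were higher, 6 were lower and 7 did not pass, or 65% called beside 55.4% of all tested genes, with a median log2 fold change of 0.02. Braf, a kinase gene of this route, was at 2.44 and 2.18 FPKM in siYAP/TAZ cells, against 3.07 and 3.15 FPKM in siCo cells (log2 fold change -0.38, SE 0.0755). Hras, a Ras GTPase gene, was at 18.1 and 18.9 FPKM in siYAP/TAZ cells, against 22.8 and 25.7 FPKM in siCo cells (log2 fold change -0.35, SE 0.0606). Increases in this list were at most 0.33 on the log2 scale, for Sos2, and 4 in place of 7 were called higher without siYAP/TAZ replicate 1.

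Of 20 genes that respond to ERK, 19 were tested, 8 were higher, 6 were lower and 5 did not pass, or 73.7% called beside 55.4% of all tested genes, with a median log2 fold change of 0.07. Etv1, an ETS transcription factor, was higher (log2 fold change 1.18), as was Spred1, an inhibitor of Ras-ERK signalling (0.93). Spred1 was at 35.2 and 35.9 FPKM in siYAP/TAZ cells, against 19.8 and 18.6 FPKM in siCo cells. Myc, a growth-promoting transcription factor, was at 31.0 and 29.5 FPKM in siYAP/TAZ cells, against 56.7 and 56.8 FPKM in siCo cells (log2 fold change -0.86). Dusp5, a nuclear phosphatase of ERK, was also lower (-0.77), so that the list held clear changes in both directions.

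Of 7 co-receptors and binding partners of the ligands, 4 were higher and 3 lower in a comparison where 55.4% of all tested genes passed, with a median log2 fold change of 0.26. The call of Nrp1 was marginal (edgeR adjusted p = 0.04824), and 2 in place of 3 genes were lower in 6 of the 11 alternatives, among them DESeq2 and the fits without siYAP/TAZ replicate 2 and without siCo replicate 2. Sdc1, a heparan sulfate proteoglycan, was at 118 and 118 FPKM in siYAP/TAZ cells, against 65.1 and 59.4 FPKM in siCo cells (log2 fold change 0.96, SE 0.0459). Cd82 and Gpc1 were higher too (log2 fold changes of 0.76 and 0.54). Cd44, a hyaluronan receptor whose heparan sulfate forms bind heparin-binding EGF-like growth factor, was at 64.5 and 66.1 FPKM in siYAP/TAZ cells, against 124 and 130.0 FPKM in siCo cells (log2 fold change -0.91). Genes named in these lists had adjusted p-values from edgeR under the threshold unless said otherwise.

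**Figure D4:**
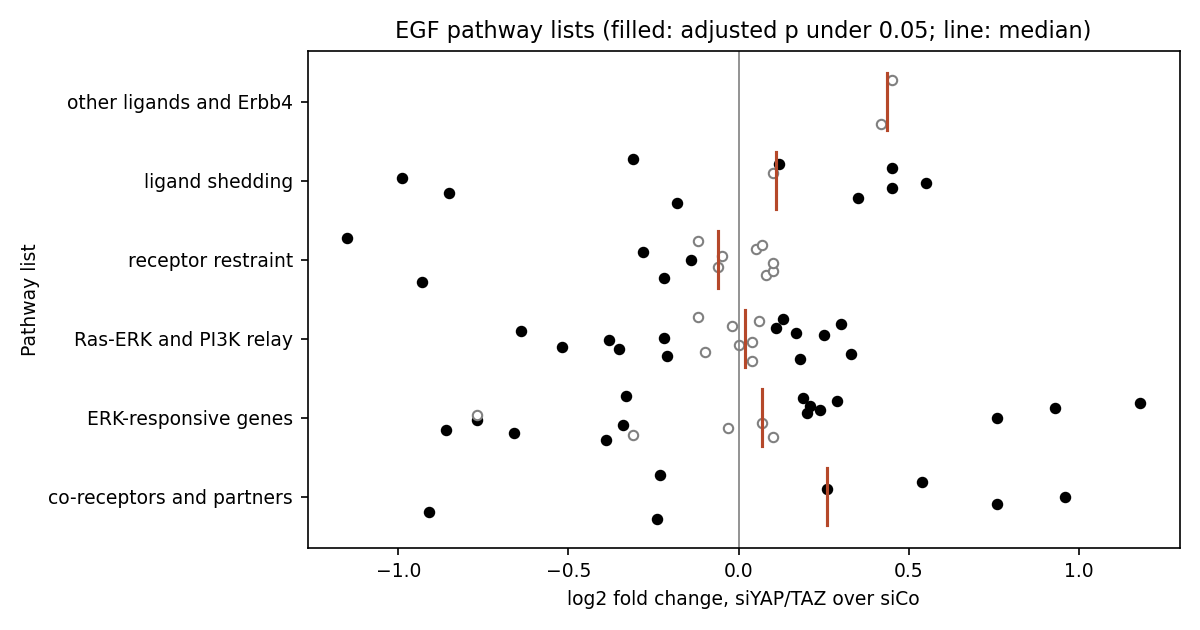
Log2 fold change of each tested gene in the 6 pathway lists, siYAP/TAZ over siCo, with filled points for genes that passed the test and a line at the list median. All medians of lists with more than 2 tested genes lie between -0.06 and 0.26, with genes on both sides of 0.

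Markers of other cell types that use these ligands and receptors were also measured. Calls among them stand beside 27.6% of all tested genes higher and 27.7% lower, or 55.4% in either direction. Summed FPKM of 7 epithelial markers was 18.6 and 16.5 in siYAP/TAZ cells, against 8.17 and 9.78 in siCo cells. Of them 2 were higher (Krt8 and Krt18), 1 was lower, 2 did not pass and 2 (Epcam and Cdh1) were too low to be tested, at 0.121 FPKM or less in every library. The 5 Schwann cell and glial markers summed to 1.89 and 1.60 FPKM in siYAP/TAZ cells, against 1.28 and 1.44 FPKM in siCo cells, with Sox10 at 0.0953 FPKM or less. The 6 endothelial markers summed to 77.3 and 78.3 FPKM in siYAP/TAZ cells, against 67.4 and 66.5 FPKM in siCo cells, and 4 of them were higher and 1 lower. The 5 fibroblast markers summed to 400.0 and 377 FPKM in siYAP/TAZ cells, against 307 and 251 FPKM in siCo cells, and all 5 were called higher. Col1a1, a large part of that sum, overlapped between the groups, at 151 and 130 FPKM in siYAP/TAZ cells, against 143 and 110 FPKM in siCo cells. Its log2 fold change was 0.19 (edgeR adjusted p = 0.03787). The 5 pericyte markers summed to 69.4 and 67.5 FPKM in siYAP/TAZ cells, against 38.6 and 33.2 FPKM in siCo cells, with 3 higher. The 8 smooth muscle markers summed to 107 and 102 FPKM in siYAP/TAZ cells, against 207 and 211 FPKM in siCo cells, with 1 higher and 5 lower. The 6 macrophage markers summed to 11.1 and 14.1 FPKM in siYAP/TAZ cells, against 8.22 and 8.56 FPKM in siCo cells, almost all of it Cd68, which was higher, and Adgre1, Tyrobp and C1qa had no count in any library. The part of these marker differences in the changes of the ligands and receptors was not tested.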

How the data were processed

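The authors used Trimmomatic, HISAT2 and mm10 per the labels, and the methods, written for tissue, add featureCounts on uniquely mapped reads with Ensembl genes, which lowers genes that have close copies. Versions and strandedness could not be read from the sources used here. The authors deposited raw counts and FPKM. Their FPKM formula gave each siCo value of the 55573 genes within 0.01 FPKM and was applied to all 4 libraries. Another 2 sample columns, the siYAP/TAZ FPKM, were left aside. The table has 55630 rows, of which 57 without a gene name (0 counts) were dropped. The siYAP/TAZ columns name the group but not the sample, so replicate numbers follow column order. The 2 rat single-nucleus samples were not analysed here.

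Deposited counts were tested in R 4.3.3 with the quasi-likelihood test of edgeR 4.0.16, after TMM scaling and filterByExpr (minimum count 10), with Benjamini-Hochberg adjustment over all tested genes. SE is the absolute log2 fold change over the square root of F. Prior and residual degrees of freedom were 18.6 and 2. The chi-square per gene was 1.99 between siYAP/TAZ libraries and 3.34 between siCo libraries, so none was a copy of another. These values do not tell separate cultures from repeated preparations of the same culture. Scripts were checked on simulated data with 200 of 15479 genes changed. There edgeR recovered 76.6% of changes of 1 and 96.8% of changes of 2 on the log2 scale, and 3.37% of its calls were false. Far fewer genes changed there than were called here, so the check does not measure the error of these calls. Members and lists were chosen with earlier results of these data known. Named were the members, the other family genes, up to 4 genes a list with the largest called change and at least 1 FPKM, and the 3 genes most like Hbegf. Some genes that this rule names are not reported here. Adam9, Adam10, Rhbdf1, Rhbdf2, Frmd8, Cnih1, Sos2, Nrp1, Cbl, Cblb, Gm19619 and the overlapping genes were added after their values were seen. Alternatives were DESeq2 1.42.0, library totals, no filter or a 1 CPM filter, limma 3.58.1 on log2(FPKM + 1) or log2(FPKM + 0.1), blocking by replicate number, and each library left out. Python 3.11.15 with scipy 1.17.1 ran the permutation tests.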

Additional observations from a re-analysis of the deposited data

How the results depend on the processing

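Areg, Btc, Hbegf, Nrg1, Egfr and Ereg kept direction and call in all 11 alternatives, and 3 members were called higher and 3 or 4 lower in each. Erbb2 had a log2 fold change of -0.25 in DESeq2, and leaving out each library gave -0.27 to -0.21, with the call lost without siYAP/TAZ replicate 2 and without siCo replicate 1. Tgfa, never called, ranged from -0.04 to 0.01 when a library was left out, and Epgn, never called, from -0.23 to 0.89, each with its sign reversed (0.01 and -0.23) without siYAP/TAZ replicate 2. Of the relay list 4 genes were higher with limma on log2(FPKM + 1) and on log2(FPKM + 0.1), and 4 to 6 when a library was left out. On log2(FPKM + 1) the change in the log2 ratio was 2.41 for Areg to Hbegf, 1.19 for Ereg to Hbegf, -0.55 for Egfr to Erbb3 and -0.34 for Erbb2 to Erbb3. With log2(CPM + 0.1) the last pair of ratios changed by -1.25 and -1.01. Under TMM library sizes Egfr was at 6.38 FPKM in siYAP/TAZ cells and 8.90 FPKM in siCo cells, and Tgfa at 2.09 FPKM in siCo cells. Scaling by library totals moved the median log2 fold change of all genes by -0.04. Erbb3 was not tested under the filter of at least 1 CPM in 2 libraries. The cause of these shifts was not tested.

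Same-numbered libraries did not deviate together (correlation 0.012 over 15479 genes). The siYAP/TAZ numbers follow column order only, so this cannot tell whether libraries of the groups shared a culture or batch. With a replicate block 4440 genes were higher and 4428 lower, 3 members were higher and 4 lower, and Hbegf had a log2 fold change of -1.55, Btc 1.51, Areg 1.03 and Erbb2 -0.24. Few counts limit Erbb3, Epgn and Nrg4, and 2 libraries a group limit all results.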

Other observations

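A gene of the chromosome 5 row outside the family was singled out after its values were seen. Gm19619 is annotated as a long intergenic non-coding RNA on the minus strand from 91257571 to 91283421, between Areg and Btc. It had 25 and 14 counts in siYAP/TAZ cells, against 6 and 7 counts in siCo cells. The groups did not overlap, as for 77.2% of tested genes. It reached the minimum count of 10 through the siYAP/TAZ libraries alone, so its change is given as counts, with no test.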
